A study of Caenorhabditis elegans with 14 samples.

Results

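Mixed tails are the sequences added to the 3′ end of 26S ribosomal RNA (rRNA) that hold only U and A, at least 1 of each, over 2 or more nt. They were chosen by sequence alone, from 5 libraries of the nematode Caenorhabditis elegans that list every added sequence with its reads, and U is written T in those lists. Of 601 distinct added sequences in these libraries, 125 were mixed tails. The libraries were made from embryos, with 1 library for each group and so no replicate.

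The wild-type strain N2 and the mutant susi-1(ust1) are the groups without an eri-1 mutation. The other 3 groups carry one: eri-1(mg366) at 20 °C, the same strain given a cold shock of 12 h at 4 °C with 2 h back at 20 °C, and the double mutant eri-1(mg366);susi-1(ust1). Apart from the shock, every group was kept at 20 °C. Every eri-1 group, stressed or not, carried the transgene 3xflag::gfp::nrde-3, for which the other 2 groups have no entry in their labels. Each library has the N2 strain background per the labels. The label of unstressed eri-1 names no matching wait at another temperature, so cold and the extra hours of the embryos cannot be told apart. The promoter of the transgene and the ust1 lesion are not given in the sources used here, and neither mutation can be checked in lists of tails. Embryos came from bleached adults, and how many plates were pooled is not given either.

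A 3′ tail of a few nucleotides is added to RNA after transcription by terminal nucleotidyltransferases, some of which prefer U and others A. Tails of U mark RNA for decay by exonucleases of the DIS3L2 family, to which SUSI-1 belongs, and short A tails feed RNA to the nuclear exosome in yeast and other eukaryotes. In C. elegans faulty rRNA with added U is linked to antisense ribosomal siRNAs (risiRNAs), which the Argonaute NRDE-3 carries into the nucleus. ERI-1 is a conserved exonuclease needed for a class of endogenous siRNAs. A tail with both bases can therefore hold the product of more than 1 such enzyme. The 26S rRNA gene is annotated as rrn-3.1 at I:15064838-15068346 on the plus strand of build WBcel235.

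The mixed tails on which the values below turn are shown as the files give them, 5′ to 3′, with A in capitals, so that the place of A within the run of U can be seen. The first set has 1 block of U and then 1 block of A.
1 U and 1 A: tA
1 U and 2 A: tAA
1 U and 3 A: tAAA
1 U and 4 A: tAAAA
2 U and 1 A: ttA
2 U and 2 A: ttAA
2 U and 3 A: ttAAA
3 U and 1 A: tttA
The second set has A enclosed by U, the orders in which U was the last base.
1 A after 1 U: tAt
2 A after 1 U: tAAt
3 A after 1 U: tAAAt
1 A after 2 U: ttAt
The third set switches between the bases more often, or is longer than 6 nt.
Switching at each base: tAtA
Longer than the limit in N2: ttAAAAA
9 nt in eri-1: ttAAttAAA
9 nt in the double mutant: tAAAAAAtA
9 nt after cold shock: tAAAAtAAA

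Mixed tails were rare in every library, at 168 to 909 per 1000000 listed reads (CPM). N2 had 2570 mixed reads of 11202100, or 229 CPM (95% exact binomial interval 221 to 238). The library of susi-1(ust1) had 4250 of 10798391, or 394 CPM (382 to 406). The counts of the 3 eri-1 libraries are all multiples of 4 in the files and were divided by 4, which left 653 of 3897762 in eri-1, or 168 CPM (155 to 181). The double mutant had 898 of 3802604, or 236 CPM (221 to 252), and eri-1 after cold shock had 1861 of 2047639, or 909 CPM (868 to 951). In order of level, eri-1 was lowest, N2 and the double mutant had overlapping intervals, susi-1(ust1) was next and cold-shocked eri-1 was highest. All intervals cover counting error only, since the protocol names no molecular identifiers to mark PCR copies and each group is 1 library.

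Distinct mixed tails numbered 40 in N2, 45 in the susi-1(ust1) mutant, 34 in eri-1, 36 in the double mutant and 103 after cold shock. The 2 libraries without eri-1 list no added sequence of any kind over 6 nt, and the 3 eri-1 libraries reach 9 nt, so tails of 7 to 9 nt can be compared only among the eri-1 libraries. Within 2 to 6 nt the numbers were 40, 45, 27, 25 and 51, in the same order, and 63 of the 114 possible sequences of that length were seen in some library. These libraries differ in depth, and for a draw of 641 reads, the number in eri-1, the counts give 28.2, 27.0, 27, 23.2 and 38.1 distinct tails. Cold-shocked eri-1 thus had the widest set per read. Of all 125 tails, 19 occurred in all 5 libraries, 71 in 1 library, and 47 had 1 read in all; 102 stayed below 10 reads in every library.

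Nearly all mixed tails began with U, the base that most 26S ends in these files carry. The added sequence of 1 U alone made up 74.9% of reads in N2, 76.1% in the susi-1(ust1) mutant, 80.1% in eri-1, 78.2% in the double mutant and 81.3% after cold shock, while ends with no added base made up 0.317%, 0.434%, 1.53%, 0.162% and 0.317%. Of the mixed reads, 99.6%, 99.9%, 98.8%, 99.3% and 99.4% started with U, and the 12 mixed tails starting with A had 5 to 12 reads in a library. When that first U is set aside, 68.8% of the mixed reads of N2 held A only, as did 54.1% in the susi-1(ust1) mutant, 63.1% in eri-1, 65.8% in the double mutant and 67.3% after cold shock. Whether the first U or any later base is encoded by the gene was not tested, since no rRNA sequence was used here.

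The usual order was a block of U followed by a block of A. This order held 91.1% of mixed reads in N2, 92.1% in the susi-1(ust1) mutant, 82.7% in eri-1, 91.2% in the double mutant and 84.7% after cold shock. A enclosed by U on both sides came next, with 7.08%, 6.59%, 14.4%, 5.23% and 9.56%. Tails that switch base 3 or more times had 40 reads in N2, 59 in the susi-1(ust1) mutant, 19 in eri-1, 36 in the double mutant and 120 after cold shock. Those of them that start and end with U are counted in the enclosed order too. In eri-1 the enclosed order held a larger share of mixed reads than in the other 4 libraries. The eri-1 interval of 15.6% (12.9 to 18.6) for mixed reads with U as the last base lies above theirs, which reach at most 11.4%. Per listed read the enclosed order was not highest in eri-1, at 16.2, 25.9, 24.1, 12.4 and 86.9 CPM in the order above.

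Most mixed tails were short and held few U. Tails of 2 nt made up 57.5% of mixed reads in N2, 42.8% in the susi-1(ust1) mutant, 47.6% in eri-1, 53.0% in the double mutant and 43.9% after cold shock. Mean lengths over tails of at most 6 nt were 2.74, 2.99, 2.96, 2.76 and 3.08 nt. A lone U was found in 69.1%, 54.3%, 64.3%, 65.9% and 67.9% of mixed reads, and 2 U in 25.0%, 35.2%, 21.3%, 25.4% and 21.8%. The library of susi-1(ust1) thus had the largest share with 2 or more U, while cold-shocked eri-1 had the largest share with more A than U, 34.1% against 15.1% in N2, 16.6% in the susi-1(ust1) mutant, 19.9% in eri-1 and 17.4% in the double mutant.

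Beyond the tails above, the less read ones kept to the same shapes. The longer A blocks after 1 U ended with tAAAAA, at 20 reads in N2, 15 in the susi-1(ust1) mutant, 8 in eri-1, 1 in the double mutant and 12 after cold shock. After 2 U, ttAAAA had 10, 34, 3, 3 and 10 reads in the same order. After 3 U, tttAA had 8, 35, 1, 6 and 9, and tttAAA had 10, 18, 4, 1 and 13. Per listed read all 4 had their highest value after cold shock, at 5.86 CPM for tAAAAA (3.03 to 10.2), 4.88 for ttAAAA (2.34 to 8.98), 4.40 for tttAA (2.01 to 8.34) and 6.35 for tttAAA (3.38 to 10.9). For ttAAAA and tttAA these intervals hold the values of the susi-1(ust1) mutant, 3.15 and 3.24 CPM.

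The less read tails with A enclosed or with a late A had similarly few reads. The tail ttAAt had 7, 17, 2, 0 and 16 reads in the same order, ttAAAt had 9, 18, 2, 1 and 8, and tttAt had 3, 10, 4, 0 and 3. The tail tAtt, with a single A as the second base, had 2, 12, 5, 6 and 2 reads, and ttAtA, in which a lone U parts 1 A from another, had 5, 22, 0, 4 and 3. Each had at most 6 reads in eri-1 and in the double mutant, too few to set those libraries against each other.

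Tails of U alone, the nearest class of 2 or more nt, were shorter than mixed tails in each library. Their mean length was 2.08 nt in N2, 2.13 in the susi-1(ust1) mutant, 2.08 in eri-1, 2.20 in the double mutant and 2.46 after cold shock. At 2 nt mixed tails were the minority of tails of either kind, at 28.8% in N2, 28.2% in the susi-1(ust1) mutant, 14.9% in eri-1, 25.8% in the double mutant and 42.5% after cold shock. At 3 nt the shares were 66.9%, 69.3%, 56.6%, 54.5% and 60.8%, and at 4 nt 94.6%, 94.9%, 87.1%, 73.1% and 81.0%. At 3 and 4 nt, then, U with A outnumbered U alone in all 5 libraries, while at 8 nt after cold shock each had 22 reads. U alone is 1 sequence at each length, whereas mixed tails pool several. The tail of 3 U had 96 reads in eri-1, 173 in the double mutant and 224 after cold shock. There the most read mixed tail of 3 nt had fewer, at 56, 108 and 218. In N2 and the susi-1(ust1) mutant ttA had more reads than the tail of 3 U.

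The base that followed a run of U shifted with the length of the run. Among N2 ends extended beyond 1 U, the next base was A in 18.8% (18.1 to 19.6), beyond 2 U in 48.2% (45.4 to 50.9) and beyond 3 U in 56.4% (48.0 to 64.5). The same steps gave 16.4%, 52.7% and 64.3% in the susi-1(ust1) mutant and 13.1%, 30.9% and 39.0% in eri-1. The double mutant gave 15.4%, 31.9% and 28.1%, and cold-shocked eri-1 gave 39.5%, 40.2% and 25.5%. Cold-shocked eri-1 was the 1 library in which A was about as frequent after 1 U as after 2.

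After U and then A, a further A was the most frequent next base. Among ends extended beyond tA, the next base was A in 60.5% in N2, 72.0% in the susi-1(ust1) mutant, 54.3% in eri-1, 68.8% in the double mutant and 78.5% after cold shock, and U in 17.2%, 14.9%, 25.0%, 16.3% and 14.7%. Beyond ttA it was A in 69.4%, 74.1%, 54.3%, 69.5% and 80.5%. A return to U was thus the lesser path in all 5 libraries, and was most frequent in eri-1 after tA.

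The first comparison asked how the susi-1(ust1) mutation bears on 26S tails in a strain without an eri-1 mutation. Mixed tails were 1.72-fold higher per listed read in the susi-1(ust1) mutant than in N2 (exact conditional 95% interval 1.63 to 1.80; Fisher's exact test, two-sided, Benjamini-Hochberg adjusted over the 12 tests made, adjusted p = 3.01e-106). The test compares 2 libraries, not 2 sets of cultures. Tails of U alone were 1.37-fold higher (1.32 to 1.43) and tails with G or C of 2 or more nt 1.44-fold higher (1.39 to 1.495), so tails of 2 or more nt were more frequent as a whole, at 1.48-fold (1.44 to 1.52). Mixed tails made up 44.8% of tails of either kind against 39.4%, an odds ratio of 1.25 (1.17 to 1.33; Fisher's exact test, adjusted p = 1.60e-11). With tails of 3 or more nt that odds ratio was 1.12 and did not pass (Fisher's exact test, adjusted p = 0.174).

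The difference between these libraries was larger for tails with 2 or more U than for those with 1. Mixed tails with 1 U were 1.35-fold higher (1.27 to 1.43), those with 2 U 2.41-fold (2.20 to 2.65) and those with 3 or more U 3.07-fold (2.55 to 3.72), so that only the interval for 1 U stands clear of the other two. The tail tA had 1816 reads (168 CPM) in the susi-1(ust1) mutant and 1473 (131 CPM) in N2, a ratio of 1.28 (1.19 to 1.37). The tail ttA had 835 reads (77.3 CPM) and 318 (28.4 CPM), 2.72-fold higher (2.39 to 3.11), and tttA had 203 (18.8 CPM) and 52 (4.64 CPM), 4.05-fold higher (2.97 to 5.60). The interval of tA lies below those of ttA and tttA, which overlap.

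By number of A the ratio did not rise with each A: mixed tails with 1 A were 1.60-fold higher (1.51 to 1.70), those with 2 A 2.37-fold (2.08 to 2.70), those with 3 A 1.77-fold (1.48 to 2.13) and those with 4 or more A 1.59-fold (1.16 to 2.20). The interval for 2 A lies above that for 1 A. Among tails with 2 U and then A, ttAA was 2.97-fold higher (2.38 to 3.73), with 315 reads against 110, and ttAAA 2.71-fold (2.02 to 3.67), with 167 against 64. Among tails with 1 U and then A, tAA was 2.07-fold higher (1.71 to 2.53), with 314 against 157, but tAAA had 109 against 91 reads, a ratio of 1.24 (0.93 to 1.66). The tail of 3 U was 2.05-fold higher (1.77 to 2.38) and that of 2 U 1.32-fold (1.26 to 1.37), so U alone also differed more at the longer length. Mixed tails with U last were 6.64% of mixed reads in the susi-1(ust1) mutant and 7.47% in N2, an odds ratio of 0.88 (0.72 to 1.07; Fisher's exact test, adjusted p = 0.201), but 0.63 for tails of 3 or more nt (Fisher's exact test, adjusted p = 2.1e-05).

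By size, 23 mixed tails had 10 or more reads in the pair, and 10 of them were at least 2-fold higher in the susi-1(ust1) mutant with an interval that excludes 1, while 0 were lower. Over all 75 added sequences with as many reads, 24.0% were higher and 1.33% lower by the same rule. The median log2 ratio was 1.05 for the mixed tails and 0.58 for all added sequences, each with 0.5 reads added. Of 4 tails of U alone with as many reads, 2 were higher and 0 lower, with a median of 0.91. Of the 10 tails, 8 start with 2 or more U. They are ttA and its extensions by A up to ttAAAA, then ttAt with ttAtA, and tttA with tttAA. The other two start with a lone U, and are tAA, described above, and tAtt with 12 reads against 2.

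The second comparison asked the same of susi-1(ust1) in a strain that carries eri-1(mg366). Mixed tails were 1.41-fold higher in the double mutant than in eri-1 (1.27 to 1.56; Fisher's exact test, adjusted p = 3.2e-11). U alone was lower, at 0.868 times eri-1 (0.812 to 0.928), and all tails of 2 or more nt were at 1.02 (0.98 to 1.07). Mixed tails therefore took 35.8% of tails of either kind against 25.6%, an odds ratio of 1.62 (1.44 to 1.84; Fisher's exact test, adjusted p = 6.3e-15). This direction rests on tails of 2 nt: over 3 or more nt the odds ratio was 0.63 (0.48 to 0.83; Fisher's exact test, adjusted p = 0.00099), the opposite direction, and with the first U of every tail set aside it was 0.66.

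By number of U, the order of the ratios was another one than without eri-1. Mixed tails with 1 U were 1.44-fold higher (1.27 to 1.64), those with 2 U 1.68-fold (1.36 to 2.09) and those with 3 or more U were at 0.85 (0.62 to 1.16), an interval below the one without eri-1. The tail tA had 475 reads (125 CPM) against 307 (78.8 CPM), ttA had 108 (28.4 CPM) against 38 (9.75 CPM), and tttA had 39 (10.3 CPM) against 42 (10.8 CPM). The ratios were 1.59 (1.37 to 1.84), 2.91 (2.00 to 4.34) and 0.95 (0.60 to 1.51), so tttA was not distinguishable at this depth. The tail ttA was higher than in eri-1, but its level in the double mutant was that of N2, 28.4 CPM in each. In the susi-1(ust1) mutant it was 77.3 CPM, and eri-1 had the lowest level of the 5 libraries. U alone split by length, with 2 U at 0.79 (0.74 to 0.85), 3 U 1.85-fold higher (1.43 to 2.40) and 4 U 2.32-fold higher (1.39 to 3.97).

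Tails with U last were less frequent among the mixed tails of the double mutant, 5.90% against 15.6% in eri-1, an odds ratio of 0.34 (0.23 to 0.49; Fisher's exact test, adjusted p = 7.8e-10). The tail tAt had 13 reads against 31, a ratio of 0.43 (0.21 to 0.85), and ttAt had 2 against 9, a ratio of 0.23 (0.02 to 1.10). Of 13 mixed tails with 10 or more reads in the pair, 3 were at least 2-fold higher (ttA, ttAAA and tAAAA) and 2 lower (tAt and tAAA), where 20.4% of all 54 added sequences were higher and 16.7% lower. These shares are near those of the mixed tails, 23.1% and 15.4%.

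The library of eri-1 stands apart from the other 4 in its ends without an added base, 1.53% of reads, and of 1 A alone, 0.397% against 0.133% to 0.25%. The double mutant, the cold shock and the comparison with N2 all use this library, and the part of this in their results was not tested. With ends without an added base as the denominator, the mixed tails were 13.3-fold higher in the double mutant (12.0 to 14.7) and 26.2-fold higher after cold shock (24.0 to 28.7), and 1.25-fold higher in the susi-1(ust1) mutant against N2 (1.19 to 1.32). On the same scale eri-1 was at 0.151 of N2 (0.139 to 0.165).

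The third comparison asked what cold stress does to 26S tails in eri-1, and per listed read it gave the largest ratio of the 4 made. Mixed tails were 5.42-fold higher after cold shock (4.96 to 5.94), with a Fisher's exact p too small for the software to represent. Tails of U alone were 1.47-fold higher (1.38 to 1.58), and tails with G or C lower, at 0.564 (0.514 to 0.618). Mixed tails took 55.9% of tails of either kind against 25.6%, an odds ratio of 3.68 (3.29 to 4.13; Fisher's exact test, adjusted p = 3.4e-122), and 46.6% of all tails of 2 or more nt against 14.2%. Over 3 or more nt the odds ratio was 1.02 (0.80 to 1.30; Fisher's exact test, adjusted p = 0.903). With the first U of every tail set aside it was 0.86 (0.66 to 1.11; Fisher's exact test, adjusted p = 0.247) and did not pass either. U alone of 3 or more nt was also more frequent, with 3 U 4.44-fold higher (3.48 to 5.70) and 4 U 6.04-fold (3.74 to 10.1).

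The difference after cold shock was larger for tails with more A. Mixed tails with 1 A were 4.27-fold higher (3.81 to 4.78), those with 2 A 6.30-fold (5.11 to 7.81), those with 3 A 8.71-fold (6.68 to 11.5) and those with 4 or more A 13.3-fold (8.66 to 21.4). By number of U no such rise was seen among mixed tails, with 5.72-fold (5.12 to 6.41) for 1 U, 5.55-fold (4.56 to 6.77) for 2 U and 3.91-fold (3.04 to 5.06) for 3 or more U. Tails with more A are also longer, and number of A was not separated from length. Among tails of U alone the ratio was larger for longer tails up to 5 U. It was 1.18 (1.10 to 1.28) for 2 U, 6.04 for 4 U and 20.9 (5.15 to 184) for 5 U. Tails of A alone of 2 or more nt also had 60 reads against 3, 38.1-fold higher (12.4 to 190).

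Among single tails with 1 U, ratios were high up to 4 A. After cold shock tA had 815 reads (398 CPM) against 307 (78.8 CPM), 5.05-fold higher (4.43 to 5.78), and tAA had 218 (106 CPM) against 56 (14.4 CPM), 7.41-fold higher (5.50 to 10.1). The tail tAAA had 149 reads (72.8 CPM) against 38 (9.75 CPM), 7.46-fold higher (5.20 to 11.0), and tAAAA had 51 against 2, a ratio of 48.5 (12.8 to 412). Every tail of this ladder up to 4 A was higher after cold shock than in any other library, with tAAA at 4.73 to 10.1 CPM and tAAAA at 0.51 to 4.35 CPM in the other 4. With 5 A the ratio was lower, as tAAAAA had 12 reads against 8, 2.86-fold higher (1.07 to 8.05). The exceptions lay elsewhere, in tttA with 19 reads (9.28 CPM) against 42 (10.8 CPM), a ratio of 0.86 (0.47 to 1.51), and in tAt with 27 against 31 reads, a ratio of 1.66 (0.95 to 2.87).

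Long and switching tails were also more frequent after cold shock. Mixed tails of 7 to 9 nt had 104 reads against 12, 16.5-fold higher (9.05 to 33.0), and 17 in the double mutant. This was not particular to mixed tails, as U alone over 6 nt had 40 reads against 0, at least 19.7-fold higher. All tails over 6 nt together were 3.45-fold higher (2.78 to 4.30). The tail ttAAAAA had 13 reads against 0, at least 5.80-fold higher by the exact interval. With the 0 of eri-1 set to the floor of 3 reads the ratio was 8.25, which is not a lower limit. Tails that switch base 3 or more times were 12.0-fold higher (7.37 to 20.7), with tAtA at 18 reads against 2. Among tails with A enclosed by U, tAAAt had 21 reads against 1. Tails with U last were 9.99% of mixed reads after cold shock against 15.6%, an odds ratio of 0.60 (0.46 to 0.79; Fisher's exact test, adjusted p = 0.00021). The 9-nt tails printed above had 1 or 2 reads each and allow no comparison.

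By size, 22 mixed tails had 10 or more reads in the pair, of which 18 were called higher and 0 called lower. Their log2 ratios had a median of 2.60. Over all 63 added sequences 47.6% were higher and 17.5% lower, with a median of 1.09. Of 6 tails of U alone with as many reads, 5 were called higher and 0 lower, with a median of 3.34. By this count of sequences the rise was shared with tails of U alone. By reads it was shared at 3 nt, where U alone was 4.44-fold higher and mixed tails 5.28-fold (4.30 to 6.54). At 2 nt, which held most reads of U alone, U alone was 1.18-fold higher and mixed tails 5.00-fold (4.38 to 5.72). The 4 mixed tails that passed neither bound were tttA, tAt with its longer form tAAt, and the 6-nt tail tAtAAt. Among ends extended by 1 base beyond the first U, tG had 54 reads against 1003, at 0.10 of its level in eri-1 (0.08 to 0.13), and the added sequence of 1 G alone was at 0.162 (0.158 to 0.166) and that of 1 A alone at 0.336 (0.322 to 0.350). Mixed tails were thus more frequent in the library where the added sequences of 1 A and of 1 G were less frequent. The part of that shift in the result was not tested.

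The fourth comparison set eri-1 against N2, which also differ in the transgene, in the multiples of 4 and in the longest listed tail. Mixed tails were lower in eri-1, at 0.73 times N2 (0.67 to 0.80; Fisher's exact test, adjusted p = 3.2e-13), and 0.72 over tails of at most 6 nt. This rests on tA, with 307 reads (78.8 CPM) against 1473 (131 CPM), a ratio of 0.60 (0.53 to 0.68), since without it the ratio was 0.91 (0.80 to 1.02; Fisher's exact test, adjusted p = 0.118). U alone was 1.38-fold higher (1.31 to 1.46), and mixed tails took 25.6% of tails of either kind against 39.4%, an odds ratio of 0.53 (0.48 to 0.59; Fisher's exact test, adjusted p = 8.5e-36). Over 3 or more nt it was 0.77 and did not pass (Fisher's exact test, adjusted p = 0.0541).

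Members of the set went both ways in eri-1. The tails ttA (38 reads against 318, a ratio of 0.34, 0.24 to 0.48), ttAAA (6 against 64, a ratio of 0.27, 0.10 to 0.62) and tAAAA (2 against 27, a ratio of 0.21, 0.02 to 0.85) were lower. The tails tttA (42 against 52, a ratio of 2.32, 1.51 to 3.55), tAAt (22 against 31, a ratio of 2.04, 1.13 to 3.64) and tAtAAt (8 against 4, a ratio of 5.75, 1.54 to 26.1) were higher. These 3 lower and 3 higher of 17 measured, 17.6% each way, stand beside 12.7% lower and 27.0% higher of all 63 added sequences. Since N2 lists no sequence over 6 nt, any longer one among the 63 could only be higher. Tails with U last were 15.6% of mixed reads in eri-1 and 7.47% in N2, an odds ratio of 2.29 (1.75 to 2.98; Fisher's exact test, adjusted p = 1.4e-09).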

How the data were processed

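A 3′ linker was ligated to total embryo RNA, and cDNA was amplified from within 26S rRNA, per the labels' protocols. Deposited values are whole-number read counts, 1 for each added sequence, 1 for ends that carry none and 1 for all reads. Bowtie2 is named in the submitters' processing notes. Its role, the way added sequences were separated from 26S rRNA, the lengths kept and the genome build are not given in the sources used here. Listed reads numbered 11202100 in N2, 10798391 in the susi-1(ust1) mutant, 15591048 in eri-1, 15210416 in the double mutant and 8190556 after cold shock as deposited, the last 3 being multiples of 4 throughout and divided by 4.

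The members and tests were chosen with earlier results of these data known. Shares have exact binomial (Clopper-Pearson) 95% intervals, ratios of shares exact conditional ones, and odds ratios are those of the sample with an exact conditional interval. Fisher's exact tests (two-sided, SciPy 1.17.1, Python 3.11.15) compared 3 measures in 4 pairs, with Benjamini-Hochberg adjustment over the 12. A sequence with 10 or more reads in a pair was called where its ratio was 2 or more, or 0.5 or less, with an interval without 1, a rule of size checked on simulated counts with counting error only. Tails named are the 5 most read of each library, those with 10 or more reads in a library and the longest of each, 26 in all. Ties in length went to the most read tail, and ties in reads to the first by alphabet. The tails tAtAAt and tG are given besides, chosen after their values were seen. Where a library had 0 reads, a ratio was also computed with 3 reads in its place, which is not a confidence limit. Coordinates of rrn-3.1 are Ensembl's. The 9 small RNA files of the series were not used here. Alternatives changed the denominator, the shortest and longest tail, the first U, the most read tail and the filter on low counts.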

Additional observations from a re-analysis of the deposited data

Results flagged for a closer look

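Per listed read, the ratio of mixed tails between susi-1(ust1) and its control was larger without eri-1 than with it. The 2 ratios, 1.72 against N2 and 1.41 against eri-1, stood 1.22-fold apart (95% interval 1.09 to 1.36 from the Poisson variance of the 4 counts), and the 2 comparisons share no library. For tails of 3 or more nt the ratios were 2.31 and 1.26, and stood 1.83-fold apart (1.56 to 2.14). The order turned on other scales, where the difference was not tested: with ends without an added base as the denominator the ratios were 1.25 and 13.3, and the odds ratios of mixed to U tails were 1.25 and 1.62. The interval covers counting error only, and the 2 pairs also differ in the transgene and in the multiples of 4, which cannot be told apart from eri-1 here.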

How the results depend on the processing

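The 21 results were computed under 107 alternative values, of which 85 kept their direction and side of the threshold, or for counts stayed within 1.5 times; 11 lost significance, 3 gained it, 4 counts moved and 4 changed direction. The limits on tails of at most 6 nt and setting the first U aside were chosen after seeing the data. Over tails of 3 or more nt, mixed tails per listed read in eri-1 against N2 were at 0.899 and no longer passed, and the odds ratio of mixed to U tails was 1.12 in susi-1(ust1), 1.02 after cold shock and 0.769 in eri-1 against N2, none passing, and 0.633, the opposite direction, in the double mutant. With the first U set aside that odds ratio also changed direction in the double mutant, at 0.662, which passed. After cold shock it was 0.856, which did not pass (0.66 to 1.11). Without the most read tail, tA, mixed tails in eri-1 against N2 were at 0.906 and did not pass. The odds ratio of U as last base in susi-1(ust1) passed at 0.629 over 3 or more nt, at 0.618 without tA and at 0.564 with the first U set aside. Counting distinct sequences in place of reads, no odds ratio passed. For mixed against U tails they were 1.125 in susi-1(ust1), 1.06 in the double mutant, 1.89 after cold shock and 0.85 in eri-1 against N2. U alone had only 8 sequences after cold shock and 5 in each other library. With so few the intervals were wide, 0.24 to 5.27 in susi-1(ust1), and nothing can be drawn from them. For U as last base they were 0.629 in the double mutant, 1.05 in eri-1 against N2 and, in the opposite direction, 1.02 after cold shock. This setting gave 6 of the 11 results that lost significance, and sequences are not replicates. A fold of 3 in place of 2 left 5 higher mixed tails in susi-1(ust1), 0 lower in the double mutant and 1 higher in eri-1 against N2, and a minimum of 20 reads left 11 higher after cold shock. The cause of these changes was not tested. No paired analysis was possible because each group is 1 library. Depth limits the single tails: 102 of 125 had under 10 reads in every library. The floor of 3 reads was 0.268 CPM in N2 and 1.47 CPM after cold shock. A count of 0 has exact 95% upper limits of 0.329 and 1.80 CPM in these libraries.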
